A study of Mus musculus with 9 samples.

Results

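The colony-stimulating factors and their receptors were followed in mouse iris after corneal alkali injury (CAI). The 9 genes were found by symbol among the 18349 genes of each library, and each had a row of its own. The ligands were *Csf1*, *Il34*, *Csf2* and *Csf3*, and the receptor chains were *Csf1r*, *Csf2ra*, *Csf2rb*, *Csf2rb2* and *Csf3r*. The 9 bulk RNA libraries fell into 3 groups of 3, and 3 irises of a genotype, with the outer edge trimmed away, were combined per library. The mice had a C57BL/6J background, carried 2 floxed alleles of *VEGFR3* in all groups, and were treated at 6 weeks of age. Sham VEGFR3fl/fl mice received PBS on the cornea. Injured VEGFR3fl/fl and injured VEGFR3iLECko mice were exposed for 60 seconds to sodium hydroxide at 1 M in a volume of 0.5 μL. VEGFR3iLECko mice also carried *Prox1-CreERT2*, which lets tamoxifen delete *VEGFR3* in cells that express *Prox1*, such as lymphatic endothelial cells (LECs). Mice of all groups received tamoxifen (80 mg/kg, days 13 to 17 after injury), and irises were taken at 10 weeks of age. The labels call the VEGFR3fl/fl libraries WT, and the genotype tags of 2 VEGFR3iLECko libraries name a VEGFR of another number, whereas their titles and descriptions name VEGFR3.

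CSF1, also called M-CSF, and IL-34 both bind the tyrosine kinase CSF1R, through which macrophages and their precursors survive and multiply. CSF2, or GM-CSF, binds the alpha chain CSF2RA together with the common beta chain CSF2RB and acts on macrophages, granulocytes and dendritic cells. The mouse has a further beta chain, CSF2RB2, which serves IL-3. CSF3, or G-CSF, binds CSF3R on neutrophils and their precursors, and it drives the making and release of neutrophils.

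The libraries held 16617187 to 18306359 estimated counts each. *Flt4*, the mouse gene for VEGFR3, was not lower in the libraries labelled VEGFR3iLECko (mean 25.4 ± 3.88 CPM, counts scaled to library size, SD, n = 3) than in injured VEGFR3fl/fl libraries (20.1 ± 3.11 CPM, SD, n = 3), and the difference had an adjusted p of 0.20 (edgeR). *Prox1* had 10 to 74 counts in the injured VEGFR3fl/fl libraries and 16 to 21 in those labelled VEGFR3iLECko. Bulk iris RNA does not separate LECs from other cells, so the genotype is given here by label. The libraries also differed in the summed level of 4 Y-linked genes, which was 51.1 to 167 CPM in Sham and 151, 136 and 0.804 CPM in replicates 1 to 3 of injured VEGFR3fl/fl, and 0.736 to 1.11 CPM in the libraries labelled VEGFR3iLECko. Y-linked genes are carried by males, and sex is not in the sample labels used here. Between the injured groups, the sex of the pooled mice and the labelled genotype therefore cannot be fully told apart. The summed level of 6 pigment cell markers was 27481 to 29416 CPM in Sham and 3344 to 7061 CPM in the 6 injured libraries. Lens markers, 5 genes, had a summed level of 2.2 to 3.56 CPM in Sham and 10.1 to 52.5 CPM in the injured libraries. *Cryaa*, a lens crystallin gene, had 0 to 2 counts in Sham and 48 to 607 in the injured libraries. The other lens genes did not rise in every injured library. *Crygs* had 1 to 4 counts in Sham, 5 to 83 in injured VEGFR3fl/fl and 3 or 4 in libraries labelled VEGFR3iLECko. *Bfsp1* averaged 2.51, 3.69 and 2.24 CPM in the same order of groups. *Cryba1* had 0 to 160 counts in the injured libraries, and *Lim2*, a lens membrane gene, had 3 counts or fewer in every library.

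After CAI, most of the family was upregulated in the iris. Of the 9 genes, 8 could be tested, and 7 of these were upregulated in injured VEGFR3fl/fl versus Sham VEGFR3fl/fl irises (differentially expressed genes, or DEGs, with more than 1.5-fold change and an adjusted p under 0.05). Among all 15010 genes tested, 22.1% were upregulated and 17.5% downregulated. No member was a downregulated DEG by edgeR (0 of 8), and 1 member, *Il34*, was lower at an adjusted p under 0.05 with no fold threshold (28.4% of all genes) and at an unadjusted p under 0.05 (30.6% of all genes). Injured VEGFR3fl/fl and Sham libraries did not overlap for any of the 8, with 7 higher (33.9% of all genes) and 1 lower (32.4% of all genes). In injured irises labelled VEGFR3iLECko versus Sham, 7 members were again upregulated and 0 downregulated, beside 19.7% and 15% of all genes. *Il34* was lower at an adjusted and an unadjusted p under 0.05 by edgeR, as were 26.3% and 29.4% of all genes, and the groups separated for all 8 members (33.3% of all genes higher and 33.2% lower). This comparison shares its Sham libraries with the former. Between the injured groups, 1 of the 8 tested members was a DEG, *Csf3*, which was upregulated in irises labelled VEGFR3iLECko, and 0.573% of all genes were upregulated DEGs there. None of the 8 was a downregulated DEG by edgeR (0.466% of all genes), and 3 were lower at an unadjusted p under 0.05 (12.5% of all genes). With the 6 injured libraries alone, or without replicate 2 labelled VEGFR3iLECko, edgeR called 0 genes of any kind between the injured groups, so every DEG call of this comparison was lost in those settings. The 8 members with a fitted change are ordered by role in the plot of log2 fold changes.

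**Figure D1:**
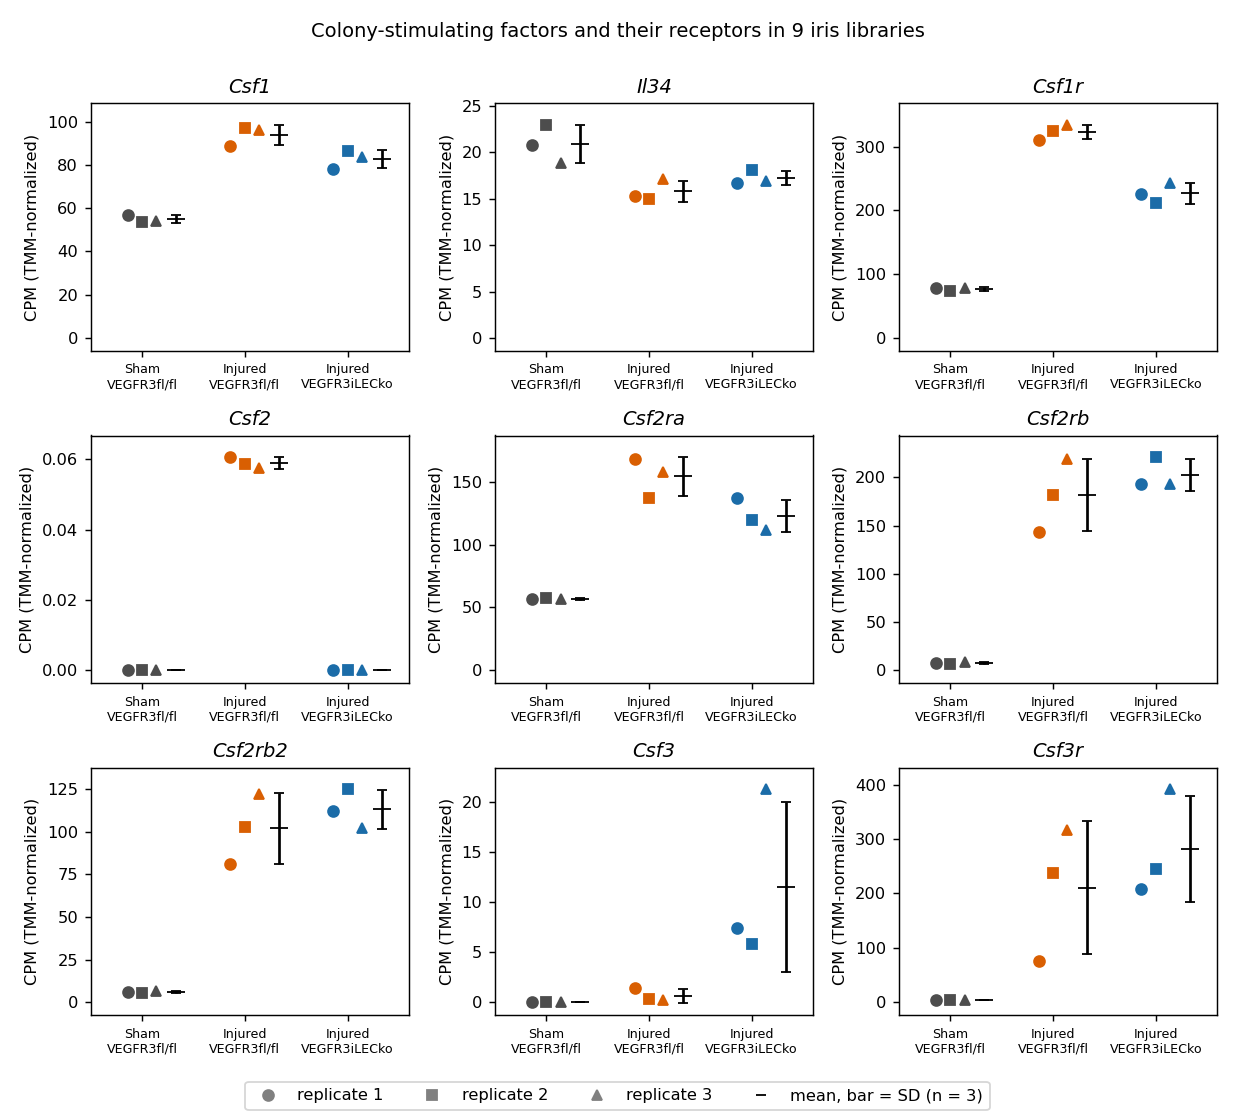
Normalized level of each gene (y axis, CPM, counts scaled to library size after TMM normalization, with a separate linear scale per gene) in the 3 libraries of each group (x axis); points are libraries, and the black mark and bar are the group mean and SD. The injured libraries sit above Sham for the receptors and *Csf1* and below Sham for *Il34*, *Csf3* is highest in the libraries labelled VEGFR3iLECko, and each *Csf2* point above 0 is 1 count.

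**Figure D2:**
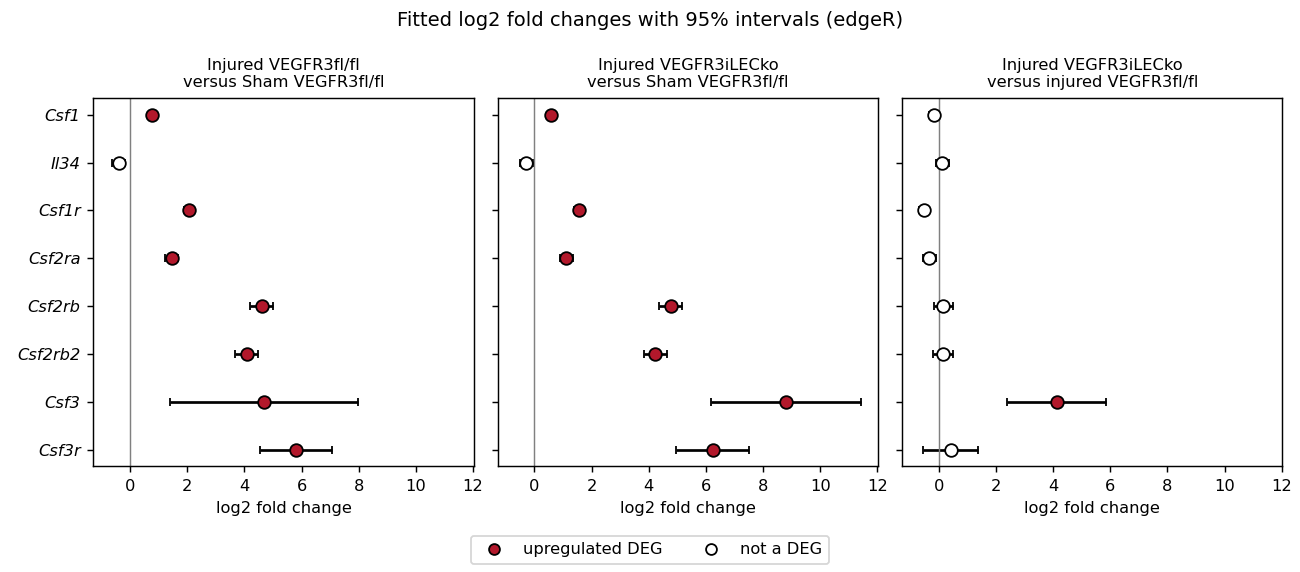
Fitted log2 fold change of the 8 tested genes (x axis) with its 95% interval (bar) in 3 comparisons; filled points are upregulated DEGs. Both comparisons with Sham have 7 filled points, with *Il34* left of 0, whereas between the injured groups only *Csf3* is filled, at 4.12.

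*Csf1r*, the receptor of both macrophage growth factors, was upregulated 4.21-fold after CAI. Its counts were 1416, 1298 and 1390 in the Sham libraries, 5124, 5530 and 5812 in injured VEGFR3fl/fl, and 3870, 3726 and 4224 in libraries labelled VEGFR3iLECko. The 3 groups did not overlap, with Sham lowest and injured VEGFR3fl/fl highest. Normalized means were 76.7 ± 2.9 CPM in Sham, 323 ± 11.4 CPM in injured VEGFR3fl/fl and 227 ± 16.1 CPM in irises labelled VEGFR3iLECko (SD, n = 3 each). The log2 fold change from Sham was 2.07 (SE 0.08, adjusted p = 1.07e-07 by edgeR) in injured VEGFR3fl/fl and 1.56 (SE 0.08, adjusted p = 6.44e-07 by edgeR) in irises labelled VEGFR3iLECko.

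*Csf1r* was 1.42-fold lower in irises labelled VEGFR3iLECko than in injured VEGFR3fl/fl irises. The log2 fold change was -0.51 (SE 0.07, 95% interval -0.68 to -0.34, adjusted p = 0.0263 by edgeR), which passed the p threshold and not the fold threshold of a DEG. It was the only member lower at this adjusted p, and 0.746% of all genes were. Its adjusted p was at least 0.05 in 8 of 18 alternative settings and ranged from 3.89e-08 to 0.174, with a log2 fold change of -0.56 to -0.45. With the Y-linked level as a covariate, *Csf1r* differed by -0.55 on the log2 scale (adjusted p = 0.174 by edgeR). In bulk RNA, fewer cells of a type and less RNA per cell cannot be told apart.

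*Csf1*, which encodes the macrophage growth factor M-CSF, was upregulated after CAI, with a smaller fold than its receptor. It had 1030, 953 and 961 counts in Sham, 1462, 1661 and 1673 in injured VEGFR3fl/fl, and 1339, 1524 and 1455 counts in libraries labelled VEGFR3iLECko. Its normalized level, 55.0 ± 1.78 CPM in Sham (SD, n = 3), was 94.0 ± 4.61 CPM in injured VEGFR3fl/fl and 82.8 ± 4.13 CPM in irises labelled VEGFR3iLECko. The change from Sham was 1.71-fold in injured VEGFR3fl/fl (log2 fold change 0.77, SE 0.07, adjusted p = 1.31e-05 by edgeR). In irises labelled VEGFR3iLECko it was 1.5-fold (log2 fold change 0.59, SE 0.07, adjusted p = 8.9e-05 by edgeR), at the edge of the fold threshold, and it fell under that threshold in 7 of 18 alternatives. The injured groups did not overlap after normalization, with a log2 difference of -0.18 (95% interval -0.33 to -0.03, adjusted p = 0.148 by edgeR).

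*Il34*, which encodes the other CSF1R ligand, was the only member with a lower level after CAI. Counts were 375, 406 and 335 in Sham, 251, 256 and 297 in injured VEGFR3fl/fl, and 286, 319 and 293 in libraries labelled VEGFR3iLECko. Every injured library lay below every Sham library, and the injured groups overlapped after normalization. Mean levels were 20.9 ± 2.04, 15.8 ± 1.13 and 17.2 ± 0.743 CPM in the same order of groups (SD, n = 3 each). Its fall of 1.32-fold in injured VEGFR3fl/fl (log2 fold change -0.40, SE 0.10, adjusted p = 0.00671 by edgeR) was under the fold threshold of a DEG. *Il34* changed from Sham by -0.28 on the log2 scale in irises labelled VEGFR3iLECko (SE 0.10, adjusted p = 0.0408, edgeR), and the adjusted p was at least 0.05 in 9 of 18 alternatives, up to 0.147 without Sham replicate 2. The injured groups differed by 0.13 on the log2 scale (95% interval -0.10 to 0.35, adjusted p = 0.45 by edgeR).

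The ligands of CSF1R therefore stood in a different ratio after injury. Per kilobase of the longest coding transcript, *Csf1* was 1.18, 1.01 and 1.23 times the level of *Il34* in the Sham libraries. In injured VEGFR3fl/fl it was 2.49, 2.77 and 2.41 times that level, and in libraries labelled VEGFR3iLECko 2.0, 2.04 and 2.12 times. The groups did not overlap, and the libraries labelled VEGFR3iLECko lay between the others. The mean log2 ratio was 1.17 higher in injured VEGFR3fl/fl than in Sham and 0.31 lower in irises labelled VEGFR3iLECko than in injured VEGFR3fl/fl (exact permutation p = 0.1 for each, two-sided, the smallest p that 3 against 3 libraries allow; adjusted p = 0.129 over 9 ratio comparisons).

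**Figure D3:**
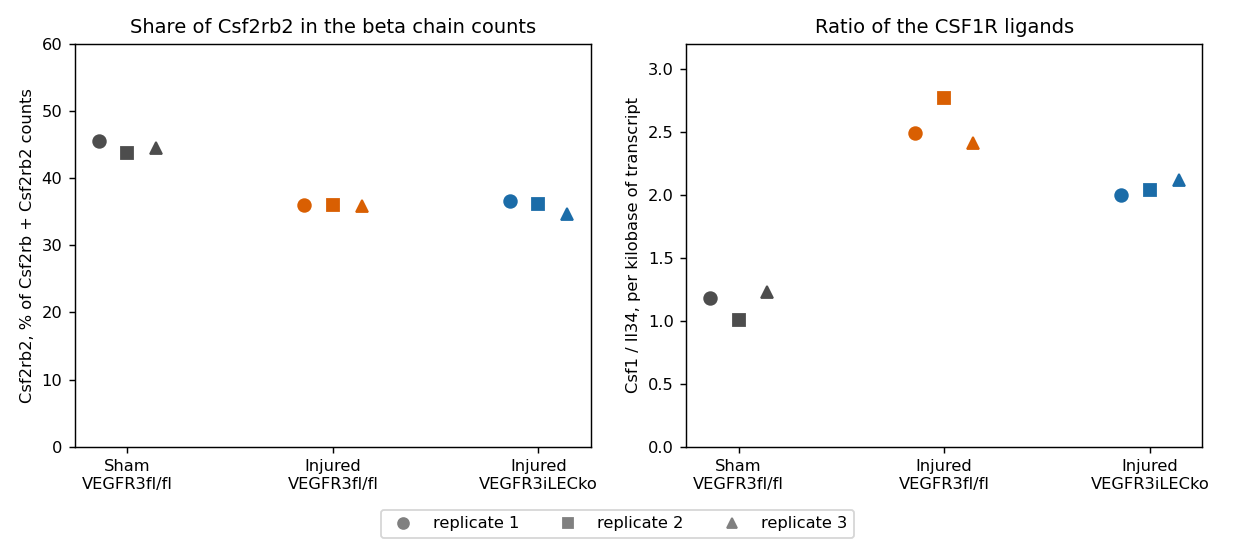
Left, the share of *Csf2rb2* in the summed counts of *Csf2rb* and *Csf2rb2* (y axis, percent); right, the ratio of *Csf1* to *Il34* per kilobase of transcript (y axis), with a point for each library in the 3 groups (x axis). The *Csf2rb2* share is 43.7% to 45.6% in Sham and 34.6% to 36.6% in the injured libraries, and the ligand ratio is 1.01 to 1.23 in Sham and 2.0 to 2.77 in the injured libraries.

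*Csf1r* moved with markers of macrophages, the cells in which it is best known. Of 14 macrophage markers, 13 were upregulated after CAI and 0 downregulated, beside 22.1% and 17.5% of all genes. Their median log2 fold change was 3.35 beside 0.01 over all genes. Their summed level was 492 to 512 CPM in Sham, 12740 to 21230 CPM in injured VEGFR3fl/fl and 8192 to 10132 CPM in libraries labelled VEGFR3iLECko. In irises labelled VEGFR3iLECko versus injured VEGFR3fl/fl, 8 of the 14 were downregulated and 0 upregulated, with a median of -0.78, and 0.466% of all genes were downregulated DEGs. None of the 8 calls held with the 6 injured libraries alone. The downregulated markers included *Adgre1*, which encodes F4/80 (-0.60, adjusted p = 0.0278 by edgeR), the Fc receptor gene *Fcgr1* (-1.03, adjusted p = 0.00862 by edgeR) and *C1qb* of complement C1q (-0.95, adjusted p = 0.0235 by edgeR). Of the 6 that were not called, *Cd163* (1.20, adjusted p = 0.311 by edgeR) and *Itgam* (0.24, adjusted p = 0.494 by edgeR) had positive values. *Mrc1* (-0.10), *Cd68* (-0.62), *Lyz2* (-0.84) and *Mertk* (-0.35) had negative values. No marker was at 0 in all libraries. The part of these cells in the change of *Csf1r* was not tested.

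Relative to the summed macrophage markers, *Csf1r* was lower after CAI. It stood at 0.143 to 0.160 of that sum in Sham, at 0.0147 to 0.0254 in injured VEGFR3fl/fl and at 0.0210 to 0.0297 in libraries labelled VEGFR3iLECko. The log2 ratio fell by 2.94 from Sham to injured VEGFR3fl/fl (exact permutation p = 0.1, two-sided, adjusted p = 0.129) and differed by 0.27 between the injured groups (exact permutation p = 0.5, adjusted p = 0.562). *Lyz2*, which encodes lysozyme, made up 27.8% to 28.3% of the sum in Sham and 71.6% to 83.0% in the injured libraries. Without *Lyz2*, a setting chosen after the data were seen, the log2 ratio differed by -1.20 between injured VEGFR3fl/fl and Sham.

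**Figure D4:**
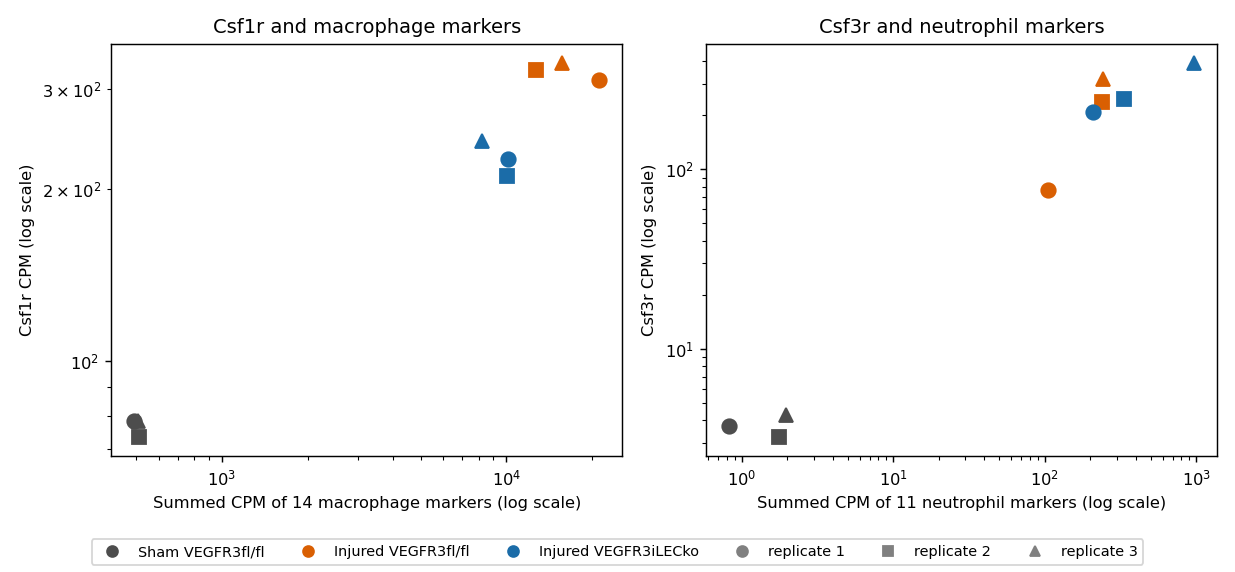
Level of *Csf1r* against the summed level of 14 macrophage markers (left) and of *Csf3r* against that of 11 neutrophil markers (right), in CPM on log axes, with a point for each of the 9 libraries, colours for groups and shapes for replicates. Sham libraries are at the lower left of both panels; at the right, replicate 1 of injured VEGFR3fl/fl is lowest among the injured libraries (76.6 CPM of *Csf3r*) and replicate 3 labelled VEGFR3iLECko is highest (392 CPM).

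The genes of the GM-CSF receptor were upregulated, whereas *Csf2*, which encodes GM-CSF itself, was near the limit of detection. *Csf2* had 0 counts in the 3 Sham libraries, 1 in each injured VEGFR3fl/fl library and 0 in the libraries labelled VEGFR3iLECko. In the 6 libraries with 0 counts, this allows a level of up to 0.166 to 0.175 CPM (3 counts, normalized as the other levels, counting error only), so no difference in *Csf2* was detectable at this depth, and the gene was too low to be tested.

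*Csf2ra*, which encodes the alpha chain that binds GM-CSF, was upregulated 2.72-fold in injured VEGFR3fl/fl. Its counts were 1022, 1015 and 1002 in Sham, 2770, 2352 and 2757 in injured VEGFR3fl/fl, and 2349, 2117 and 1946 in libraries labelled VEGFR3iLECko. These were rounded from deposited values with decimals, such as 1021.88 in Sham replicate 1, and are estimates rather than whole read counts. After normalization every injured library was above Sham, and each library labelled VEGFR3iLECko was below each injured VEGFR3fl/fl library (112 to 137 against 138 to 168 CPM). The log2 fold change from Sham was 1.45 in injured VEGFR3fl/fl (SE 0.10, adjusted p = 2.91e-06 by edgeR) and 1.12 in irises labelled VEGFR3iLECko (SE 0.10, adjusted p = 1.85e-05 by edgeR). In irises labelled VEGFR3iLECko versus injured VEGFR3fl/fl it was -0.33 (95% interval -0.55 to -0.11, adjusted p = 0.0957 by edgeR). *Csf1*, *Csf1r* and *Csf2ra* were the 3 members that were lower in irises labelled VEGFR3iLECko with no overlap between the injured groups, and 14.3% of all genes had this pattern.

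The beta chains had larger fold changes than the alpha chain. *Csf2rb*, which encodes the common beta chain of the GM-CSF, IL-3 and IL-5 receptors, had 128, 118 and 151 counts in Sham, 2371, 3113 and 3815 in injured VEGFR3fl/fl, and 3316, 3910 and 3350 in libraries labelled VEGFR3iLECko. *Csf2rb2*, which encodes the IL-3-specific beta chain, had 108, 92 and 121 counts in Sham, 1331, 1753 and 2127 in injured VEGFR3fl/fl, and 1919, 2207 and 1769 in libraries labelled VEGFR3iLECko. The injured libraries lay far above Sham for both genes, and the injured groups overlapped. *Csf2rb* rose 24.5-fold in injured VEGFR3fl/fl (log2 fold change 4.61, SE 0.18, adjusted p = 1.3e-07 by edgeR) and *Csf2rb2* 17-fold (4.08, SE 0.18, adjusted p = 2.41e-07 by edgeR). Their log2 fold changes from Sham were 4.77 and 4.23 in irises labelled VEGFR3iLECko. The differences between both injured groups were 0.16 for *Csf2rb* (95% interval -0.17 to 0.49, adjusted p = 0.529 by edgeR) and 0.15 for *Csf2rb2* (95% interval -0.19 to 0.49, adjusted p = 0.558 by edgeR). Both turned to the other sign, -0.083 and -0.088, with the Y-linked level as a covariate.

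The beta chain genes are near copies, and the start of their coding sequence is shown because reads of 50 bases from such stretches can fit either gene. The genes lie side by side on chromosome 15 on opposite strands (GENCODE M21, GRCm38), *Csf2rb* at chr15:78325752-78353847 on the plus strand and *Csf2rb2* at chr15:78282507-78305721 on the minus strand. The first 120 coding bases, read 5′ to 3′ over spliced exons within chr15:78335207-78336379 and chr15:78297071-78298229, differ at 4 bases, which are in capitals.
Csf2rb: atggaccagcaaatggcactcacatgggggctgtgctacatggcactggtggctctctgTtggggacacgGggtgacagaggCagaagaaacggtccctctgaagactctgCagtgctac
Csf2rb2: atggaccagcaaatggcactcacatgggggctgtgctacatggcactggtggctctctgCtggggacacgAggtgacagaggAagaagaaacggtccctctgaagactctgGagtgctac
Over the whole coding sequence, 95.2% of 2628 aligned bases were identical. Of all stretches of 50 bases, 18.4% of those in the *Csf2rb* transcript also occur in that of *Csf2rb2*, and 19% the other way. The deposited counts of both genes had decimals that summed to whole numbers in all 9 libraries, so reads had been divided between them, and their separate values are uncertain.

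The division between the beta chains differed between Sham and injured libraries. *Csf2rb2* held 43.7% to 45.6% of the summed counts in Sham, 35.8% to 36.0% in injured VEGFR3fl/fl and 34.6% to 36.6% in libraries labelled VEGFR3iLECko. The log2 ratio of *Csf2rb* to *Csf2rb2* was 0.53 higher in injured VEGFR3fl/fl than in Sham (exact permutation p = 0.1, two-sided, adjusted p = 0.129) and differed by 0.01 between the injured groups (exact permutation p = 1.0). With both genes counted as 1, the log2 fold change after CAI was 4.4 (adjusted p = 1.7e-07 by edgeR). Sums ranged from 210 to 271 counts in Sham and from 3702 to 6117 counts in the injured libraries.

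*Csf3r*, the G-CSF receptor gene, had the largest fold change of the family's receptors after CAI, and among the receptors it varied most between injured libraries. It had 67, 57 and 76 counts in Sham, 1263, 4055 and 5513 in injured VEGFR3fl/fl, and 3555, 4324 and 6811 in libraries labelled VEGFR3iLECko. All injured libraries were above Sham, replicate 1 of injured VEGFR3fl/fl was the lowest of them, and the injured groups overlapped. Mean levels were 3.74 ± 0.53 CPM in Sham, 210.2 ± 122 CPM in injured VEGFR3fl/fl and 282 ± 97.5 CPM in irises labelled VEGFR3iLECko (SD, n = 3 each). The log2 fold change from Sham was 5.81 (56.2-fold, SE 0.56, adjusted p = 2.45e-05 by edgeR) in injured VEGFR3fl/fl and 6.23 (SE 0.57, adjusted p = 2.38e-05 by edgeR) in irises labelled VEGFR3iLECko. Between the injured groups it was 0.42 (95% interval -0.55 to 1.39, adjusted p = 0.567 by edgeR), 0.027 without replicate 1 of injured VEGFR3fl/fl, 0.84 without its replicate 3 and 0.11 without replicate 3 labelled VEGFR3iLECko.

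*Csf3*, which encodes G-CSF, was almost absent from Sham irises and highest in irises labelled VEGFR3iLECko. It had 0, 0 and 1 counts in Sham, 24, 6 and 3 in injured VEGFR3fl/fl, and 127, 102 and 370 counts in libraries labelled VEGFR3iLECko. Each library labelled VEGFR3iLECko was above each injured VEGFR3fl/fl library, and 12.4% of all genes had this pattern. The group means were 0.660 ± 0.696 CPM and 11.5 ± 8.53 CPM (SD, n = 3 each). From summed counts of 599 and 33, the level in irises labelled VEGFR3iLECko was 17.7 times that in injured VEGFR3fl/fl (95% interval 12.5 to 26.0, counting error only). The fitted log2 fold change was 4.12 (SE 0.76, 95% interval 2.40 to 5.84, adjusted p = 0.0417 by edgeR).

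The *Csf3* call was near the threshold, while its direction held. It was kept with the other scalings, with both other filters on low counts and with DESeq2 (adjusted p = 1.35e-05), and lost in 11 of 18 alternatives, with log2 fold changes of 3.32 to 5.99 throughout. By edgeR, the adjusted p was 0.119 with the 6 injured libraries alone, 0.0789 with the replicate number as a block and 0.245 with the Y-linked level as a covariate. Left out in turn, 8 of the 9 libraries brought the adjusted p by edgeR to between 0.0526 and 0.111, and without replicate 1 of injured VEGFR3fl/fl it was 0.0277. Replicate 3 of injured VEGFR3fl/fl, with a Y-linked sum of 0.804 CPM like the libraries labelled VEGFR3iLECko, had 3 counts of *Csf3*.

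**Figure D5:**
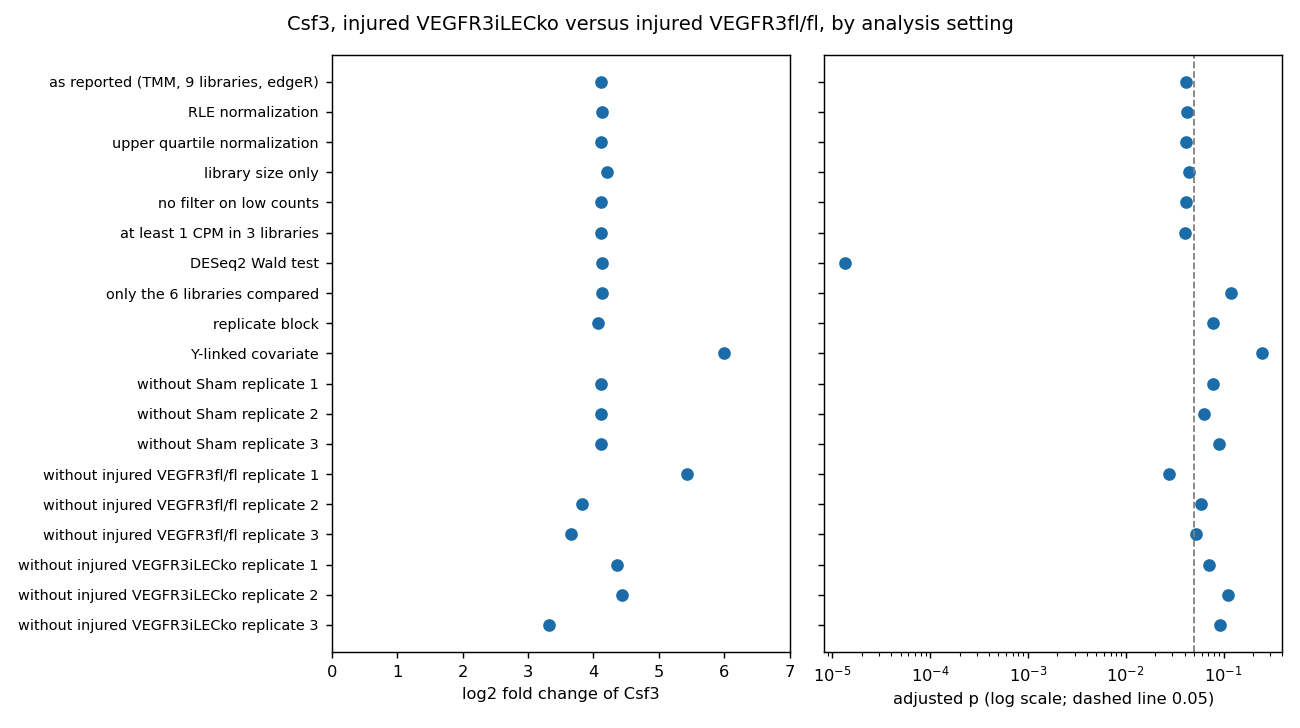
Log2 fold change of *Csf3* between irises labelled VEGFR3iLECko and injured VEGFR3fl/fl irises (left, x axis) and its adjusted p (right, x axis, log scale, dashed line at 0.05) under the reported setting and 18 alternatives (rows). Every log2 fold change lies between 3.32 and 5.99, whereas the adjusted p is above 0.05 in 11 alternatives.

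From Sham to injured VEGFR3fl/fl, *Csf3* rose from 1 to 33 summed counts, a ratio of 34.6 (95% interval 5.80 to 1410, counting error only). The fitted log2 fold change was 4.68 (SE 1.45, adjusted p = 0.0201 by edgeR), and the adjusted p was 0.065 without Sham replicate 1, 0.0628 without Sham replicate 2 and 0.0931 without replicate 1 of injured VEGFR3fl/fl. The log2 fold change was 4.22, 4.23 and 3.38 in those fits and 6.52 without Sham replicate 3. Replicate 1 of injured VEGFR3fl/fl held 24 of the 33 counts. The ratio of irises labelled VEGFR3iLECko to Sham was 615 (95% interval 110.0 to 24300, counting error only), and its fitted log2 fold change was 8.8 (SE 1.16, adjusted p = 0.000223 by edgeR).

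Neutrophil markers moved with *Csf3r* across the libraries. Of 11 markers in the files, 8 could be tested. After CAI, 6 of the 8 were upregulated and 0 downregulated, beside 22.1% and 17.5% of all genes. Between the injured groups 0 were DEGs by edgeR, with 3 higher at an unadjusted p under 0.05, and 1 was upregulated by DESeq2. Their median log2 fold change there was 1.35 beside -0.01 over all genes. The summed level was 0.831 to 1.97 CPM in Sham, 106, 240.1 and 244.5 CPM in replicates 1 to 3 of injured VEGFR3fl/fl, and 208, 335 and 971 CPM in replicates 1 to 3 labelled VEGFR3iLECko. *Elane* and *Mpo*, granule genes of early neutrophil precursors, had 3 counts or fewer in every library. *Ly6g*, which marks mature neutrophils, had 0 counts in Sham, 3 or 4 in injured VEGFR3fl/fl, and 4, 7 and 86 in the libraries labelled VEGFR3iLECko. *Camp*, *Ltf* and *Ngp* were instead highest in replicate 2 labelled VEGFR3iLECko, with 46, 109 and 217 counts there and 21, 20 and 63 in replicate 3. *S100a8* and *S100a9* had 265 and 481 CPM in replicate 3 labelled VEGFR3iLECko, beside the sum of 971 CPM there. Replicate 3 labelled VEGFR3iLECko was therefore highest in *Csf3*, *Csf3r* and the neutrophil sum. In injured VEGFR3fl/fl the order of libraries differed, since replicate 1 was highest in *Csf3* and lowest in *Csf3r* and the sum. *Csf3r* was 0.725, 0.989 and 1.29 times the sum in injured VEGFR3fl/fl and 0.999, 0.730 and 0.404 times the sum in libraries labelled VEGFR3iLECko. The part of neutrophil number in these results was not tested.

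Compared per kilobase of transcript, the order of the genes changed with injury. In Sham, *Csf2ra* was highest (30.7 CPM per kilobase), followed by *Csf1r* (16.3), *Csf1* (13.2) and *Il34* (11.6), none of which overlapped its neighbour. *Csf2rb* (1.51), *Csf2rb2* (1.27) and *Csf3r* (1.07) came next, each overlapping its neighbour in range. In injured VEGFR3fl/fl the receptors led, with *Csf2ra* at 83.7, *Csf1r* at 68.7, *Csf3r* at 60.4 and *Csf2rb* at 37.1 CPM per kilobase, and *Csf3r* overlapped both of its neighbours. *Csf1* (22.5) and *Csf2rb2* (21.5) overlapped, and *Il34* (8.77) lay below them. In irises labelled VEGFR3iLECko, *Csf3r* was at 80.9 and *Csf2ra* at 66.5 CPM per kilobase with overlapping ranges. *Csf3*, at 8.14 CPM per kilobase, overlapped *Il34* at 9.58 only in that group. In injured VEGFR3fl/fl, *Csf3* was at 0.467 CPM per kilobase.

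The stretch before the transcription start is shown for *Csf2ra*, of the GM-CSF receptor, and *Csf2rb2*, of the IL-3 receptor, since both were upregulated after CAI and both windows hold the letters GAGGAA, the core bound by the myeloid factor PU.1. Both are RefSeq sequences of the 250 bases before the start on GRCm38.p6, given 5′ to 3′ on the gene's minus strand, with matches on either strand in capitals.
Csf2ra, chr19:61228419-61228668: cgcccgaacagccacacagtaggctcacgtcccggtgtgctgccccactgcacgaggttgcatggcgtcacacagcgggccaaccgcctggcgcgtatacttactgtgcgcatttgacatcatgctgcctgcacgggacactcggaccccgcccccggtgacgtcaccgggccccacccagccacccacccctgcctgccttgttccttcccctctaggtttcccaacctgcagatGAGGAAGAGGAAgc
Csf2rb2, chr15:78305722-78305971: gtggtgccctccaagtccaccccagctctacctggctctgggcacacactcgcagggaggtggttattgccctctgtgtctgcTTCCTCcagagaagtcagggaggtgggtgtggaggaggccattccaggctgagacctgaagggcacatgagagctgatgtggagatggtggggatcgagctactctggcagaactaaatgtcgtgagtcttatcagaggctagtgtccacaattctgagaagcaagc
Windows were searched for *Csf1*, *Csf2*, *Csf2ra*, *Csf2rb2* and *Csf3r*, and not for *Csf1r*, *Csf2rb*, *Csf3* and *Il34*. Adjoining GAGGAA matches lie at -14 to -9 and -8 to -3 from the start of *Csf2ra*, and a match on the other strand lies at -167 to -162 from that of *Csf2rb2*. The last bases of the *Csf2ra* window belong to an exon of another *Csf2ra* transcript in GENCODE M21, whose gene has its 5′ end at chr19:61228429. The *Csf2ra* match at -8 to -3 therefore lies inside that annotated transcript, and the match at -14 to -9 lies partly inside it. *Csf3r* had a match at -86 to -81, in a stretch that GENCODE M21 places inside its transcript. Of 32851 windows of the same length in the table, 23.3% held GAGGAA, so a match is common, and it describes letters rather than a bound site. The NF-kappaB motif, present in 7.25% of windows, was found once each in *Csf1* and *Csf3r*, the letters TTGCNNAA bound by C/EBP factors (9.56% of windows) once in *Csf2*, and the AP-1 letters TGANTCA (6.75% of windows) in 0 of them. The *Csf2* window, chr11:54249900-54250149, does not adjoin the *Csf2* gene of GENCODE M21, whose 5′ end is at chr11:54249667.

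The myeloid factors that act on the genes of CSF receptors were upregulated with them after CAI. Of 8 tested, 7 were upregulated and 0 downregulated in injured VEGFR3fl/fl, beside 22.1% and 17.5% of all genes. Their median log2 fold change was 2.82. *Spi1*, which encodes PU.1, had a log2 fold change of 4.07 (SE 0.13, adjusted p = 4.87e-08 by edgeR). Of the 8, 2 were downregulated in irises labelled VEGFR3iLECko versus injured VEGFR3fl/fl, beside 0.466% of all genes. These were *Cebpa*, which encodes C/EBP alpha (-0.78, SE 0.13, adjusted p = 0.0384 by edgeR), and *Irf8*, a factor of monocytes and dendritic cells (-0.76, SE 0.09, adjusted p = 0.0213 by edgeR). *Spi1* had a value of -0.40 there (adjusted p = 0.0849 by edgeR). At an unadjusted p under 0.05, 5 of the 8 were lower and 1 was higher, and 12.5% of all genes were lower. The higher gene was *Ets2* (0.28, adjusted p = 0.0819 by edgeR), and *Runx1* (0.20) and *Klf4* (0.08) also had positive values. *Cebpe* and *Gfi1*, factors of granulocyte precursors, were too low to be tested.

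Downstream of CSF1R, 13 genes of signal transduction had a median of 1.84 in injured VEGFR3fl/fl. Of these, 11 were upregulated and 1 was downregulated, beside 22.1% and 17.5% of all genes. They included the adaptor *Tyrobp* (log2 fold change 5.07) and the phosphatase *Inpp5d* (3.48), while *Mitf*, a transcription factor that pigment cells also use, was downregulated (-1.54). Of the 13, 1 was a DEG between the injured groups, the phosphatase *Ptpn6* (-0.61, SE 0.11, adjusted p = 0.0399 by edgeR). It was downregulated in irises labelled VEGFR3iLECko, as were 0.466% of all genes. The median of the list was -0.38. The 3 other proteins to which IL-34 is known to bind differed in direction after CAI. *Ptprz1*, a receptor phosphatase, was downregulated (-2.62, adjusted p = 8.75e-07 by edgeR), whereas *Sdc1*, which encodes syndecan-1, and *Trem2*, a macrophage receptor, were upregulated (1.42 and 5.17). *Ptprz1* was upregulated in irises labelled VEGFR3iLECko versus injured VEGFR3fl/fl (0.98, SE 0.14, adjusted p = 0.0263 by edgeR). Its counts were 2221, 1736 and 1872 in Sham, 235, 310 and 358 in injured VEGFR3fl/fl, and 606, 664 and 548 in libraries labelled VEGFR3iLECko. *Trem2* had a value of -1.13 between the injured groups (adjusted p = 0.0512 by edgeR).

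Downstream of the GM-CSF and G-CSF receptors, 10 of 16 genes of JAK-STAT signalling were upregulated after CAI and 1 was downregulated, with a median of 0.86. Over all genes, 22.1% were upregulated and 17.5% downregulated. The kinase *Lyn* (2.73), the feedback inhibitor *Socs3* (3.01) and the kinase *Pim1* (1.71) were among the upregulated genes. *Cish*, another feedback inhibitor and a STAT5 target, was downregulated (-1.90, SE 0.29, adjusted p = 0.000394 by edgeR). The kinase *Jak2*, which both receptors use, had a log2 fold change of 0.47, and *Stat5a* of -0.10 and *Stat5b* of -0.22, and none of them was a DEG. Between the injured groups 0 of the 16 were DEGs by edgeR, and 2 were downregulated by DESeq2. At an unadjusted p under 0.05, 2 were higher and 3 lower, and 12.5% of all genes were lower. *Il3ra*, which encodes the alpha chain of the IL-3 receptor, was upregulated after CAI (1.47, SE 0.13, adjusted p = 1.33e-05 by edgeR). *Il5* and *Il5ra* were too low to be tested.

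The genes known to induce or control CSF transcripts were largely upregulated after CAI. The median over 13 tested was 2.55. Of the 13, 10 were upregulated and 0 downregulated, beside 22.1% and 17.5% of all genes. These were cytokines such as *Il1b* (6.54), *Il1a* (5.36), *Tnf* (3.11) and *Il6* (6.59), the IL-17 receptor gene *Il17ra* (2.83) and *Zc3h12a* (2.87), which encodes an RNase that degrades cytokine transcripts. Between the injured groups 1 of the 13 was a DEG, *Il6*, upregulated in irises labelled VEGFR3iLECko (2.61, SE 0.37, adjusted p = 0.0263 by edgeR). Over all genes, 0.573% were upregulated DEGs there. *Il6*, which encodes a cytokine of acute inflammation, had 1, 0 and 0 counts in Sham, 19, 61 and 47 in injured VEGFR3fl/fl, and 282, 256 and 255 in libraries labelled VEGFR3iLECko. *Il1b* had 538, 1852 and 1750 counts in injured VEGFR3fl/fl and 2303, 2926 and 4146 in libraries labelled VEGFR3iLECko, with no overlap and a value of 1.16 (adjusted p = 0.122 by edgeR). *Il17a* had 6 counts or fewer in every library, and *Il17f* 1 or fewer. Among 10 tested genes of other blood cell cytokines and their receptors, 6 were upregulated after CAI, such as *Flt3* (4.15) and *Il7r* (6.29). Between the injured groups 0 of the 10 were DEGs by edgeR or DESeq2. At an unadjusted p under 0.05, 2 were lower, as were 12.5% of all genes.

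The genes most like each member over the 9 libraries were named by Pearson's r of log2 CPM, as a description of 9 points that fall into 3 groups. They were *Cd180* (0.999), *Gimap5* (0.995) and *Irf1* (0.995) for *Csf1*, and *Osbpl2* (0.967), *Fam71e1* (0.963) and *Gm40835* (0.962) for *Il34*. For *Csf1r* they were *Samhd1*, *Necap2* and *Gdf3* (0.996 each), and for *Csf2ra* they were *Pak1* (0.997), *H2-DMa* (0.996) and *Bcl2a1d* (0.996). *Csf2rb* and *Csf2rb2*, which share reads, were most like each other (1.0), followed by *Cd300lf* (0.999 and 0.998), by *Plek* (0.998) for *Csf2rb* and by *P4ha3* (0.998) for *Csf2rb2*. *Csf3r* was most like *Tnfsf14* (0.999), *Cdh5* (0.997) and *Col5a1* (0.997). *Csf3* was most like *Syne4* (0.977), *Ccdc190* (0.944) and *Copb1* (0.937). *Syne4* had 42 to 53 counts in Sham, 52 to 60 in injured VEGFR3fl/fl and 88 to 99 in libraries labelled VEGFR3iLECko, and so followed the separation of *Csf3* at a much smaller fold. Within the family, r was 0.987 between *Csf1* and *Csf1r*, 0.745 between *Csf3* and *Csf3r* and -0.893 between *Il34* and *Csf1r*.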

How the data were processed

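Bulk RNA-Seq of 9 iris libraries was analysed. Reads were single-end with 50 bases. The submitters' processing notes name HISAT2 2.0.4, Bowtie2 2.2.5, DESeq2 1.4.5 and mm10. The authors deposited estimated counts per gene without normalization. The program that estimated the counts and the annotation are not given in the sources used here. Between 9.83% and 10.3% of the deposited values were not whole numbers. A combined table with the same library totals was not used. Groups followed titles and descriptions.

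Counts were rounded and filtered by filterByExpr of edgeR 4.0.16 in R 4.3.3, which kept 15010 of 18349 genes. The 9 libraries were normalized by TMM (factors 0.90 to 1.09) and shared a single edgeR fit by group. The quasi-likelihood test gave the 3 group comparisons, and p-values were adjusted over the 15010 genes (Benjamini-Hochberg). A DEG had an adjusted p under 0.05 and more than 1.5-fold change. SEs were computed from the F statistic. Ratios were tested by exact permutation, two-sided, with SciPy. Levels between genes were compared per kilobase of the longest coding transcript of GENCODE M21. Alternatives covered scaling, filters, DESeq2 1.42.0, the libraries fitted, thresholds, a replicate block, a Y-linked covariate and each library left out. Intervals and floors from counts cover counting error only.

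The members and gene lists were chosen with earlier results of these data known. Named genes were the members, *Flt4* and *Prox1*, the 3 genes most like each member, and, of the pathway lists, DEGs between the injured groups and the ligands, receptors or inhibitors beside a member. Other genes of a list were named as examples after their values were seen. Replicates of a group differed by more than counting noise (chi-square per degree of freedom 5.13 to 76.2). No source states that libraries came from separate litters, so p-values measure the spread between pools. The main fit did not pair samples by replicate number, and the data could not show whether these numbers pair them. Data for injured VEGFR3fl/fl versus Sham were simulated from Sham means with the fitted trend of spread, and only 200 genes were changed. Of these, 130 changed 2-fold were recovered among 14349 genes (65%), and 168 of 200 changed 3-fold among 14359 (84%). In the data many more genes changed (22.1% upregulated and 17.5% downregulated), so recovery there can differ. The comparison between the injured groups was not simulated.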

Additional observations from a re-analysis of the deposited data

How the results depend on the processing

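The upregulation of *Csf1r*, *Csf2ra*, *Csf2rb*, *Csf2rb2* and *Csf3r* in injured VEGFR3fl/fl versus Sham held in all alternatives run. Member DEGs from Sham numbered 6 to 7 in both injured groups. The exceptions were *Csf3* in injured VEGFR3fl/fl and *Csf1*, which was lost in both injured groups with a 2-fold threshold and in irises labelled VEGFR3iLECko in 7 further alternatives. *Csf3* from Sham to injured VEGFR3fl/fl had no value with those 6 libraries alone, where it was filtered out. With no fold threshold, 1 member was downregulated in each comparison (*Il34* from Sham, *Csf1r* between the injured groups), and all downregulated genes were 4269 after CAI, 3952 in irises labelled VEGFR3iLECko versus Sham and 112 between the injured groups. With a 2-fold threshold these were 1599, 1268 and 10, and upregulated genes between the injured groups were 31. The counts between the injured groups, 86 upregulated and 70 downregulated, became 350 and 283 with DESeq2, 0 and 0 with the 6 injured libraries alone (edgeR), 0 and 2 with the Y-linked covariate, and 566 and 493 at an unadjusted p under 0.05, and 41 were downregulated with library size only. With the replicate block they were 11 and 13. Same-numbered libraries correlated at -0.387 to 0.131 in their deviations from group means, and libraries of different numbers at -0.243 to 0.321. With 3 libraries per group, deviations from the group mean depend on each other, so these values cannot show whether the numbers pair samples. Leaving out each library gave 0 to 174 upregulated and 0 to 149 downregulated genes, both 0 without replicate 2 labelled VEGFR3iLECko. They were 10 and 16 without Sham replicate 1, 38 and 38 without Sham replicate 2, 3 and 8 without Sham replicate 3, 174 and 107 without replicate 3 of injured VEGFR3fl/fl, 3 and 6 without replicate 1 and 46 and 17 without replicate 3 labelled VEGFR3iLECko, and 149 were downregulated without replicate 2 of injured VEGFR3fl/fl. Upregulated members between the injured groups were 0 to 1 on leaving out libraries, and 0 with the 6 injured libraries, the block or the Y-linked covariate. With that covariate, values between the injured groups changed sign for *Csf2rb* (-0.083), *Csf2rb2* (-0.088), *Csf3r* (-0.16), *Il34* (-0.00041) and *Prox1* (0.60, and 1.24 versus Sham). *Prox1* after CAI ranged from -0.054 (without replicate 1 of injured VEGFR3fl/fl) to 1.11 on leaving out libraries. The log2 ratio of *Csf2rb* to *Csf2rb2* between the injured groups ranged from -0.028 (without replicate 3 labelled VEGFR3iLECko) to 0.038. Scaling by library size alone moved the median over all genes (log2) to -0.162 after CAI and -0.119 in irises labelled VEGFR3iLECko versus Sham. The causes were not tested.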

Other observations

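Other cell type markers were followed beside the family, as values without explanation. After CAI, 8 of 8 T cell markers, 7 of 8 dendritic cell markers, 5 of 6 monocyte markers, 5 of 6 blood endothelial markers and 4 of 6 fibroblast markers were upregulated in injured VEGFR3fl/fl irises, and 0 genes of these lists were DEGs between the injured groups by edgeR. At an unadjusted p under 0.05, 2 T cell, 1 dendritic cell and 1 fibroblast marker were lower and 2 monocyte markers higher in irises labelled VEGFR3iLECko, blood endothelium had 1 of each, and 1 T cell marker was downregulated by DESeq2. Of the markers tested for NK cells, B cells and eosinophils, 2 of 2 were upregulated in each list, as was 1 of 5 for mast cells and 1 of 2 for lens (*Cryaa*). *Siglecf*, a marker of eosinophils, had a log2 fold change of 5.35 after CAI. *Ccr3*, the other eosinophil marker tested, had 0, 102 and 9 counts in injured VEGFR3fl/fl and overlapped with Sham. *Epx*, *Prg2* and *Ear6* of the same list had 9 counts or fewer in every library and were too low to be tested. Downregulated after CAI were 6 of 6 pigment cell markers, 4 of 6 iris smooth muscle markers and 3 of 5 Schwann cell markers. So were 4 of 5 markers of corneal and surface epithelium and 1 of 4 of ciliary epithelium. The summed corneal and surface markers, however, were at 9.4 to 66.2 CPM in Sham and 5.21 to 118 CPM in injured VEGFR3fl/fl. The sum was highest in replicate 1 of injured VEGFR3fl/fl, where *Aldh3a1* had 1921 counts, beside 33 and 178 in replicates 2 and 3. *Krt5* had 328, 148 and 7 counts in Sham. Of 5 iris transcription factors, 1 was upregulated and 2 were downregulated, and of 6 markers of neurons and retina, 1 and 1. Over all genes tested, 22.1% were upregulated and 17.5% downregulated after CAI, so counts of 1 from lists of 4 to 6 are near these shares. Between the injured groups, 12.5% of all genes were lower at an unadjusted p under 0.05. Of 6 lymphatic endothelial markers, 2 were upregulated (*Ccl21a* and *Pdpn*) and 1 downregulated (*Reln*). *Ccl21a* had 1522 counts in replicate 1 of injured VEGFR3fl/fl and 0 to 79 in the other 8 libraries. Between the injured groups *Reln* was upregulated in irises labelled VEGFR3iLECko (0.75, adjusted p = 0.036 by edgeR), and 0 of 4 Y-linked genes were DEGs by edgeR, at a median of -10.3, with 4 lower at an unadjusted p under 0.05 and 4 by DESeq2. In irises labelled VEGFR3iLECko versus Sham, 4 of 4 Y-linked genes were downregulated.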
